A study of Mus musculus with 4 samples.

Results

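The 10 genes described here, all of the Notch pathway, were followed across sorted cells of the mouse embryo: the ligands Dll4, Dll1, Jag1 and Jag2, the receptors Notch1 and Notch4, and the target genes Hey1, Hey2, Hes1 and Nrarp. They were picked by symbol, and all 10 were found among the 31053 genes counted. Cells positive for CD31, a surface protein of endothelium, and negative for CD45, a surface protein of blood cells, had been sorted from the aorta-gonad-mesonephros region at embryonic day 10.5, the site where blood stem cells emerge from the aortic wall. RNA molecules were counted per cell with a droplet kit that reads 3' ends. The mutant embryos (KO) carried the genotype mir-223 -/-, and their age-matched controls (WT) were wild type, with 2 libraries in each group. The labels give no promoter, transgene or treatment, and nothing in them ties a library to its own embryos or litter. The p-values therefore measure only how far these libraries lie apart, and part of that spread may be technical.

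Notch is a receptor on the cell surface that a ligand of the Delta or Jagged family on a neighbouring cell activates. Once activated, the receptor is cleaved within the membrane, and the freed part joins the DNA-binding protein RBPJ to switch on target genes, mainly transcriptional repressors of the HES and HEY families. In developing vessels this pathway sets arterial against venous identity, restrains tip cells at sprouting fronts, and is needed in the aorta for blood stem cells to form from hemogenic endothelium.

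miR-223 is a microRNA known for its abundance in myeloid blood cells. Its mature 3p strand is shown because the mutation removes it and because its seed, bases 2 to 8 in capitals, is what a target transcript would have to match. The RefSeq copy of the GRCm38.p6 build places it on the plus strand at chrX:96242884-96242905.
mmu-miR-223-3p: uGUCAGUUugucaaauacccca
The reverse complement of that seed in DNA letters, AACTGAC, was in none of the annotated 3' UTRs of the 10 members, which ran from 368 to 1884 bases in the GENCODE M21 annotation. It was in 1841 of all 21039 genes with such a UTR, or 8.75%, and in 6.25% of the 9902 genes whose UTRs fall in the members' length range. The absence of the match says only that these letters are not in these annotated UTRs.

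The promoter of Hey2 is shown because Hey2 was the target gene most nearly limited to arterial-like cells and because its window alone, among the members' windows, holds the core letters known to be bound by RBPJ. RefSeq's promoter table spans 250 bases before to 50 bases after a start site; it covers 9 windows for 8 members, and Hey1 and Hes1 were not matched in it. The Hey2 window lies on the minus strand of GRCm38.p6 at chr10:30842734-30843033, and capitals mark the core on either strand.
Hey2 promoter: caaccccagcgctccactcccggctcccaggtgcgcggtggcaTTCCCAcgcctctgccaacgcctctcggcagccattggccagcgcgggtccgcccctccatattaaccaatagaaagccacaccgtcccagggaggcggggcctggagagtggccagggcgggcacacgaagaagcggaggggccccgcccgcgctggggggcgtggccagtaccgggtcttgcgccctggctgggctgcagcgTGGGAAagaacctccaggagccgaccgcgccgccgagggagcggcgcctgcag
The core TGGGAA, or TTCCCA on the other strand, occurs in 25.6% of all 32851 windows of this length. The longer form GTGGGAA, or TTCCCAC, which contains the core, occurs in 6.38% of them and in the Hey2 window. A match here is a description of letters and not a shown binding site.

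In the GRCm38 annotation, Dll4 lies on chromosome 2 from 119325784 to 119335962 on the plus strand, Dll1 on chromosome 17 from 15367354 to 15376872 on the minus strand, Jag1 on chromosome 2 from 137081456 to 137116644 on the minus strand and Jag2 on chromosome 12 from 112907819 to 112929776 on the minus strand. Notch1 lies on chromosome 2 from 26457903 to 26516663 on the minus strand and Notch4 on chromosome 17 from 34564268 to 34588503 on the plus strand. Hey1 spans 8663359 to 8667256 of chromosome 3 and Hey2 spans 30832359 to 30842801 of chromosome 10, both on the minus strand. Hes1 spans 30064384 to 30067796 of chromosome 16 and Nrarp spans 25180758 to 25183339 of chromosome 2, both on the plus strand. Genes on the opposite strand overlap Notch1 (0610009E02Rik and Gm13568), Notch4 (Gm20462), Dll4 (Gm14207), Nrarp (Gm38287) and Dll1 (A930024N18Rik). Whether the authors counted by strand was not given in the labels or file headers, so the counts of these 5 members may include reads of those partners.

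The libraries held 109713066 and 167542930 UMIs in KO replicates 1 and 2, and 95158639 and 181682389 in WT replicates 1 and 2, a UMI being a tag that marks 1 captured RNA molecule. After filtering, 4127 and 5870 KO cells and 2295 and 6875 WT cells remained, 19167 in all, and between 8 and 28 barcodes were shared by any pair of libraries. KO replicate 1 stood apart in Xist, a transcript of the inactive X chromosome: 0.0344% of its endothelial-like cells held a UMI of it, against 43.9% in KO replicate 2 and 51.2% and 43.3% in WT replicates 1 and 2. In counts per 1000000 UMIs (CPM), WT replicate 1 stood apart in genes that respond quickly to stimulation, with Fos at 119 CPM and Btg2 at 100.1 CPM in endothelial-like cells, against 53.8 to 72.1 CPM and 39.2 to 49.0 CPM in the other 3 libraries. F630028O10Rik, the transcript whose locus holds the microRNA, had 2.53 and 4.84 CPM in the KO libraries against 0.129 and 0.405 CPM in the WT libraries. A 3' tag can lie outside a deleted part, so this gives no check of the genotype.

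Cells were grouped into 24 clusters without the Notch genes, and 13 classes were named from marker genes after the clusters were seen. Arterial-like cells (1449) expressed Gja5 at 414 to 461 CPM over the 4 libraries, venous-like cells (2359) Aplnr at 299.6 to 391 CPM, sinusoidal-like cells (999) Oit3 at 357 to 481 CPM and sprouting-like cells (760) Kcne3 at 179.6 to 294 CPM. Marker support differed between these classes. More than 2-fold above all other cells were 11 and 10 of 11 arterial markers in the arterial-like clusters 11 and 12. In sinusoidal-like cells 5 of 7 of their markers were so. Venous-like cells had only 1 of 6 venous and sprouting-like cells only 2 of 8 sprouting markers above that limit. Neural-plexus-like cells (2753) expressed Foxq1, a marker of vessels around the neural tube, at 78.9 to 127 CPM. Hemogenic-like cells (307) expressed the blood stem cell factor Runx1 at 128 to 182 CPM and still the endothelial cadherin Cdh5 at 298 to 374 CPM. Of the listed markers, 9 of 9 hemogenic and 5 of 6 blood were more than 2-fold above other cells. All 10 listed endothelial markers were detected. For these, 0 of 10 were more than 2-fold above other cells, as in venous-like cells. Most of the other cells are endothelial-like, so this count does not show a loss of endothelial identity. The 10 leading genes of the hemogenic-like cells included Spi1, Myb and Lyz2. The class may thus include cells already committed to blood, which was not tested. Cluster 2 (1769 cells) is given by its number, because it held both arterial and sprouting markers. Its 10 leading genes against all other cells included the arterial marker Unc5b and the sprouting marker Esm1. By the same comparison, 5 of 11 arterial and 2 of 8 sprouting markers were more than 2-fold higher. The other classes were endocardial-like (237), megakaryocyte-like (110), erythroid-like (148), germ cell-like (434), mesenchymal-like (1354) and neural-like (415). Levels are the summed UMIs of a class in a library scaled to CPM, given as the mean ± SD of all 4 libraries unless each library is named. The endothelial-like cells as a whole are 15353 cells from clusters with endothelial markers. They include clusters 1 (2233 cells), 3 (1610), 6 (1143) and 23 (41), which are in none of these classes and are not described one by one here. The endothelial-like cells leave out the hemogenic-like cells. Clusters 9 (790 cells) and 20 (136 cells) were also left out, though all 10 listed endothelial markers were detected in them. Their median UMIs per cell were 7250.5 and 5601.5. The class differences are descriptions without a test, since the classes were made from the same cells.

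**Figure D1:**
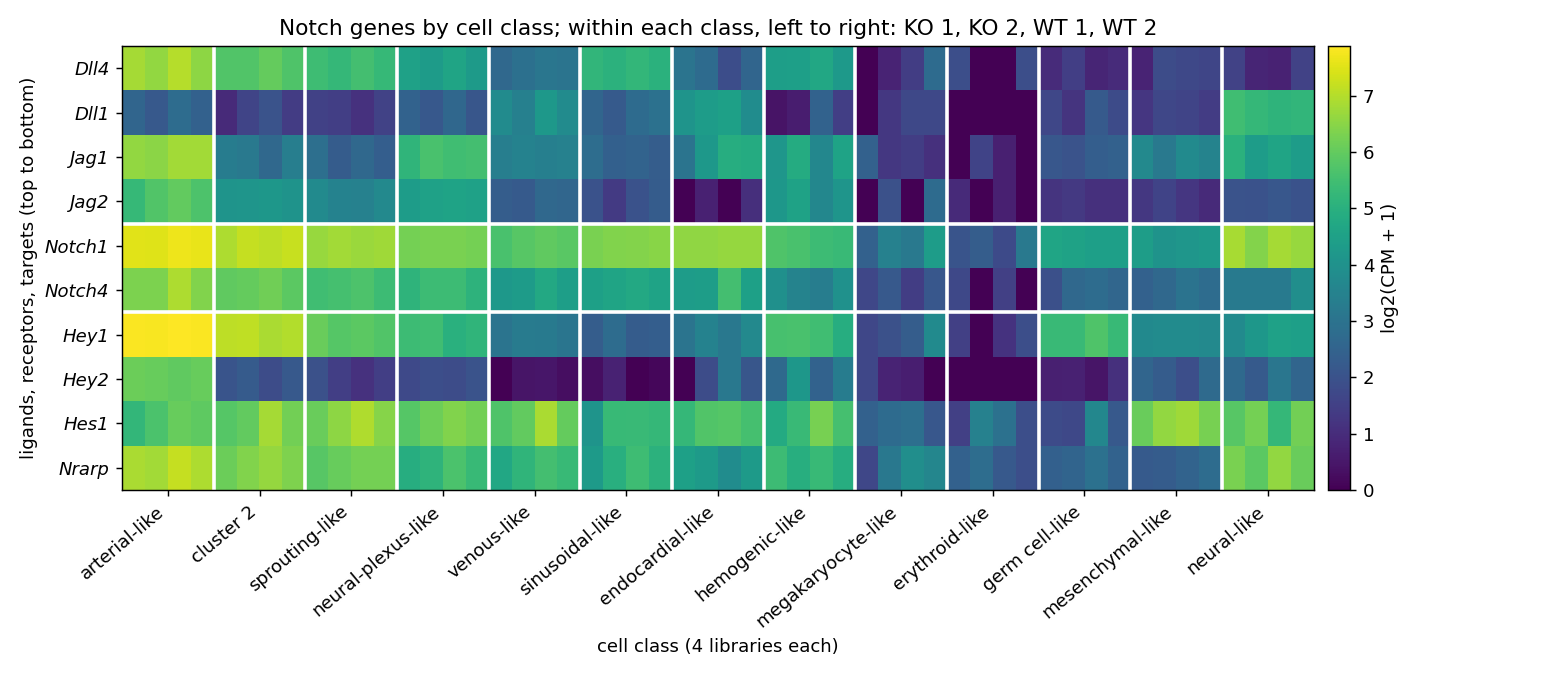
Level of each of the 10 Notch genes (vertical axis) in each of the 13 classes and each library (horizontal axis, KO replicates 1 and 2 before WT replicates 1 and 2 within a class), as log2(CPM + 1) in colour. Brighter colour is a higher level, and the arterial-like columns are the brightest for 8 of the 10 genes. The exceptions are Hes1 and Dll1.

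For 8 of the 10 members the mean level was highest in arterial-like cells, the exceptions being Hes1 and Dll1. The 8 include both receptors, 3 of the 4 ligands and 3 of the 4 target genes. Arterial-like cells held the highest level of 1600 of all 10730 genes that reached 10 CPM in any class, or 14.9%. The count of members was 8 also with each cell weighted equally, with doublets kept, and with Notch genes allowed in the clustering. The last of these left no sprouting-like class. Among 50 further genes of the pathway, chosen as a list, 10 were highest in arterial-like cells and 15 in neural-like cells.

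Dll4, the Delta ligand of arteries and tip cells, had 111 and 96.2 CPM in KO and 129 and 91.8 CPM in WT arterial-like cells. Each of the 4 libraries lay above every library of every other class, and the 2 genotypes overlapped. Cluster 2 followed with 54.8 ± 5.99 CPM, sprouting-like cells with 40.4 ± 3.93 CPM and sinusoidal-like cells with 33.9 ± 2.03 CPM (SD, n = 4 each), each step without overlap between libraries. Hemogenic-like cells at 21.2 ± 2.94 CPM and neural-plexus-like cells at 20.6 ± 2.25 CPM overlapped. Venous-like cells had 6.65 ± 0.952 CPM, or 6.32% ± 1.30 of the arterial-like level of the same library.

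Dll1, a Delta ligand best known from somites and the developing nervous system, was lower in arterial-like than in venous-like and endocardial-like cells. It was highest in neural-like cells, with 43.6 and 37.4 CPM in KO and 34.2 and 35.4 CPM in WT libraries. Endocardial-like cells at 17.4 ± 3.48 CPM and venous-like cells at 13.3 ± 3.12 CPM overlapped and came next, and arterial-like cells had 4.74 ± 0.979 CPM. Sprouting-like cells and cluster 2, which followed arterial-like cells in Dll4, were lower still in Dll1, at 1.69 ± 0.340 and 1.91 ± 0.892 CPM. Venous-like cells thus held 280% ± 13.2 of the arterial-like level of Dll1 in the same library, higher in 4 of 4 libraries. No UMI of Dll1 was found in erythroid-like cells.

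Jag1, a Jagged ligand of arterial endothelium, had 96.8 and 89.3 CPM in KO and 109 and 109 CPM in WT arterial-like cells. Both KO libraries lay below both WT libraries there. Neural-plexus-like cells came second, without overlap with any other class, with 34.6 and 48.4 CPM in KO and 43.2 and 44.6 CPM in WT libraries. Cluster 2, which held 51.6% of the arterial-like level of Dll4, held 7.91% of the arterial-like level of Jag1; the cells nearest to arterial-like cells in Dll4 were not so in Jag1. Jag2, the other Jagged ligand, was also highest in arterial-like cells at 50.8 ± 10.3 CPM. Neural-plexus-like cells (21.5 ± 1.32 CPM), hemogenic-like cells (16.7 ± 4.31 CPM) and cluster 2 (16.2 ± 0.601 CPM) overlapped behind them.

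Notch1, the receptor of arterial endothelium and of many other cells, neural progenitors among them, had 184 and 178 CPM in KO and 203 and 196 CPM in WT arterial-like cells. Both KO libraries lay below both WT libraries. Cluster 2 followed at 137 ± 12.9 CPM without overlap. Sprouting-like cells (105 ± 4.89 CPM), neural-like cells (103 ± 13.4 CPM) and endocardial-like cells (96.0 ± 1.85 CPM) overlapped with their neighbours in that order. Sinusoidal-like, neural-plexus-like and venous-like cells came next at 83.1 ± 4.40, 75.5 ± 2.03 and 56.1 ± 5.58 CPM, each step without overlap. Hemogenic-like cells had 45.3 ± 5.62 CPM and overlapped with venous-like cells, while germ cell-like and mesenchymal-like cells had 22 ± 1.52 and 17.4 ± 1.89 CPM.

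Notch4, a receptor largely limited to endothelium, had 79.6 and 78.6 CPM in KO and 119 and 82.4 CPM in WT arterial-like cells. WT replicate 1 stood above the other 3 libraries, which lay close together. Cluster 2 (63.9 ± 5.60 CPM) followed without overlap, and sprouting-like (45.4 ± 3.95 CPM) and neural-plexus-like cells (37.5 ± 4.37 CPM) overlapped. Hemogenic-like cells had 12.2 ± 2.84 CPM, and mesenchymal-like, germ cell-like, megakaryocyte-like and erythroid-like cells averaged from 5.64 down to 1.02 CPM.

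Hey1, a HEY repressor and the target gene used most as a readout of arterial Notch signalling, had 225 and 224 CPM in KO and 235 and 225 CPM in WT arterial-like cells. The 4 libraries spread over ± 4.96 CPM (SD), and the genotypes overlapped. Cluster 2 had 128 ± 9.47 CPM and sprouting-like cells 58.0 ± 5.94 CPM, both without overlap with the next class. Germ cell-like cells (42.5 ± 6.11 CPM), hemogenic-like cells (42.2 ± 8.81 CPM) and neural-plexus-like cells (37.6 ± 5.52 CPM) overlapped. Venous-like and sinusoidal-like cells were far below, at 7.83 ± 0.753 and 4.48 ± 0.952 CPM.

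The germ cell-like class, which expressed the germ cell gene Dppa3 at 1054 to 1175 CPM, held Hey1 with little Dll4. Its Hey1 had 39.7 and 39.9 CPM in KO and 51.7 and 38.8 CPM in WT libraries, or 18.7% ± 2.24 of the arterial-like level. The same cells had 1.09% of the arterial-like level of Dll4 and 11.6% of that of Notch1.

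Hey2, the second arterial HEY repressor, had 68.5 and 64.7 CPM in KO and 61.5 and 65.3 CPM in WT arterial-like cells. All other classes averaged 9 CPM or less. Hemogenic-like cells came second with 5.52 and 17.1 CPM in KO and 4.59 and 8.81 CPM in WT libraries, a spread so wide that they overlapped with neural-like and mesenchymal-like cells. Cluster 2 held 5.05% of the arterial-like level of Hey2 against 56.5% of that of Hey1. Hey2 had no UMI in erythroid-like cells.

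Hes1, the HES repressor that responds to Notch and to other signals, had no arterial peak. It averaged 91.9 ± 23.1 CPM in sprouting-like, 86.7 ± 18.3 CPM in mesenchymal-like, 73.3 ± 28.9 CPM in venous-like and 52.6 ± 12.9 CPM in arterial-like cells (SD, n = 4 each). The first 10 classes in its order, down to sinusoidal-like cells, each overlapped with the next. Mesenchymal-like cells, which expressed the limb and body wall factor Prrx1 at 185 to 302 CPM, held 168% ± 29.6 of the arterial-like level of Hes1 but 3.72% of that of Nrarp and 5.53% of that of Hey1.

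Nrarp, a target gene whose protein feeds back to restrain Notch, was highest in arterial-like cells with 117 and 110.2 CPM in KO and 144 and 119 CPM in WT libraries. Both KO libraries lay below both WT libraries. Cluster 2 (82.6 ± 12.4 CPM), neural-like cells (74.8 ± 15.9 CPM) and sprouting-like cells (67.3 ± 8.85 CPM) overlapped in that order. Neural-plexus-like, venous-like, hemogenic-like, sinusoidal-like and endocardial-like cells formed a lower run of overlapping classes from 37.7 to 18 CPM.

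**Figure D2:**
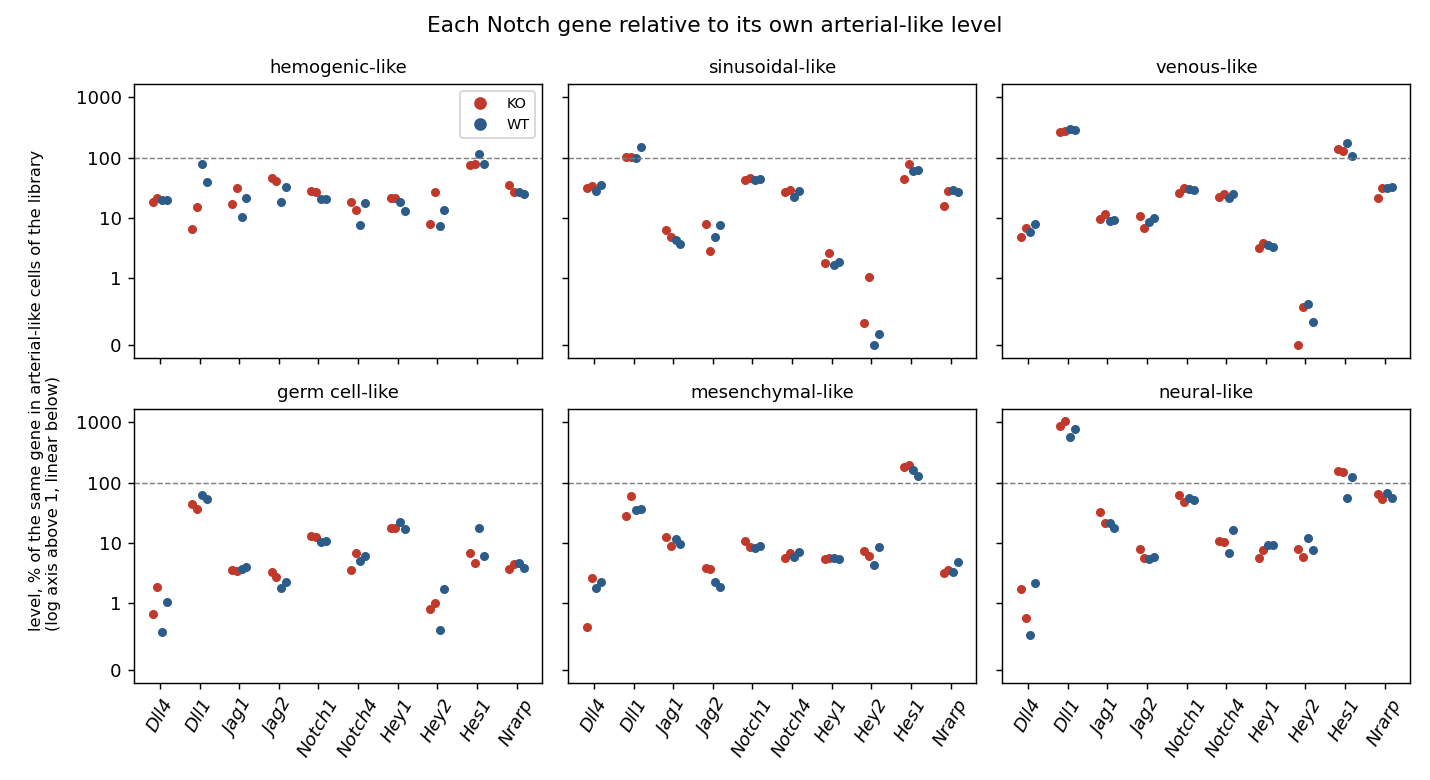
Level of each Notch gene in 6 classes as a percentage of its own level in arterial-like cells of the same library (vertical axis, per cent; points are the 4 libraries, the dashed line is 100%). Sinusoidal-like cells held 32.1% of the arterial-like Dll4 but 1.97% of the arterial-like Hey1, whereas hemogenic-like cells held 19.9% and 18.6% of them.

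Set against their own arterial levels, the members split differently in each class. Sinusoidal-like cells held 43.7% ± 2.25 of the arterial-like Notch1 and 32.1% ± 2.97 of the Dll4, yet 1.97% ± 0.444 of the Hey1 and 0.384% of the Hey2. Hemogenic-like cells held 24% ± 4.2 of the Notch1, 19.9% ± 1.40 of the Dll4 and 18.6% ± 3.91 of the Hey1, with 34.5% of the Jag2. Venous-like cells held 29.4% of the Notch1 and 23.2% of the Notch4 but 6.32% of the Dll4, 3.44% ± 0.320 of the Hey1 and 0.383% of the Hey2. In venous-like and sinusoidal-like cells the receptors kept a larger share of their arterial-like level than the HEY genes did, in each of the 4 libraries. Neural-like cells held 54.1% of the Notch1 and 60.6% of the Nrarp but 1.30% of the Dll4.

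The arterial-like class joined cluster 11 (742 cells) and cluster 12 (707 cells), which shared Gja5 and Tmem100 among their 10 leading genes. Htra1 and Nkx2-3 were among those of cluster 11 only, and the gap junction gene Gja4 among those of cluster 12 only. The Notch genes differed between the 2 clusters in both directions. Jag1 had 128 and 128 CPM in KO and 168 and 162 CPM in WT libraries in cluster 11, against 49.5 and 53.5 CPM in KO and 55.7 and 71.3 CPM in WT libraries in cluster 12. Hey2 had 89.8 and 108 CPM in KO and 105 and 118 CPM in WT libraries in cluster 11, against 35.7 and 24.6 CPM in KO and 22.6 and 27.7 CPM in WT libraries in cluster 12. Both genes were higher in cluster 11 in every library, Jag1 by 2.27 to 3.02 times and Hey2 by 2.52 to 4.64 times. Hey1 ran the other way, at 179.6 ± 7.05 CPM in cluster 11 and 276 ± 18.3 CPM in cluster 12, a ratio of 0.58 to 0.69. Notch1 was also lower in cluster 11 (168 ± 14.9 CPM) than in cluster 12 (214 ± 9.76 CPM), and Dll4 slightly so, with a ratio of 0.77 to 0.97. The order of the 2 clusters was thus opposite for the 2 HEY genes, in both genotypes.

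**Figure D3:**
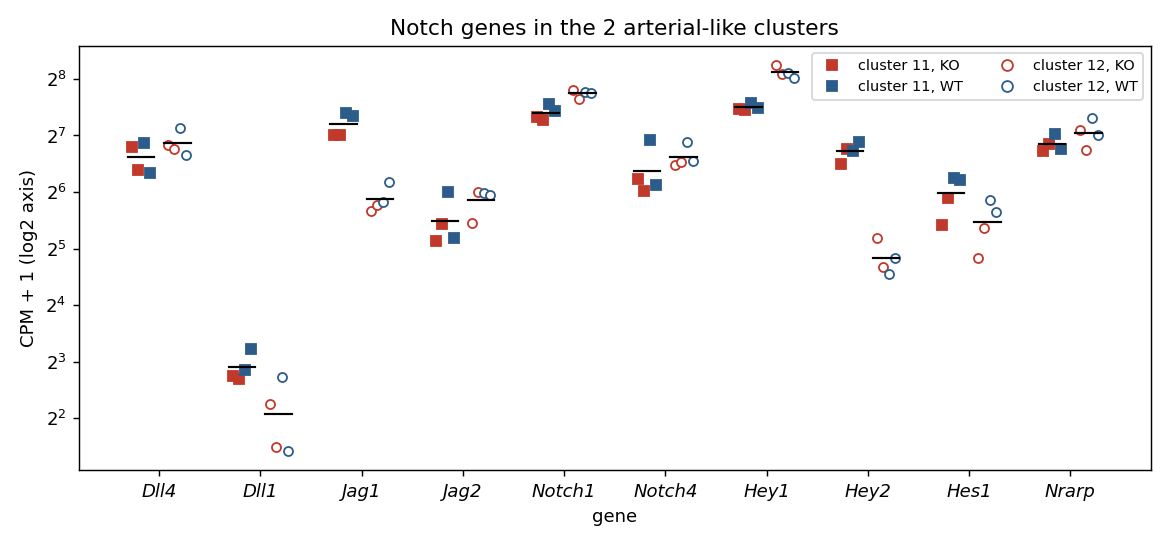
Level of each Notch gene in the 2 arterial-like clusters (vertical axis, CPM + 1 on a log2 scale; squares are cluster 11 and circles cluster 12, one per library, bars are the means of the 4 libraries). Jag1 and Hey2 lie higher in cluster 11 and Hey1 lies higher in cluster 12, without overlap.

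The neural-plexus-like and neural-like classes also joined unlike cells. In the plexus, cluster 5, marked by Spock2, had Hey1 at 83.6 and 83.6 CPM in KO and 73.7 and 74.4 CPM in WT libraries, against 24.5 and 16.6 CPM in KO and 10.8 and 13.6 CPM in WT libraries in cluster 4, marked by Tdrp. Dll4 (35.2 ± 5.55 against 12.9 ± 3.64 CPM), Notch4 (53.1 ± 4.66 against 29.3 ± 4.18 CPM) and Jag1 (59.4 ± 10.8 against 33.9 ± 2.87 CPM) were higher in cluster 5 as well, and Dll1 was lower at 2.95 ± 0.631 against 4.69 ± 1.05 CPM. In the neural-like class, cluster 16, led by the progenitor gene Fabp7, had Hes1 at 64.6 and 123 CPM in KO and 47.0 and 98.0 CPM in WT libraries, against 26.5 and 29.1 CPM in KO and 5.63 and 3.67 CPM in WT libraries in cluster 18, led by the neuronal gene Tubb3. Nrarp was likewise higher in cluster 16 (94.4 ± 16.7 CPM) than in cluster 18 (27.8 ± 8.65 CPM). Dll1 averaged 31.5 ± 4.84 CPM in cluster 16 and 54.6 ± 30.7 CPM in cluster 18, and the libraries of the 2 clusters overlapped.

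Shares of cells gave the same picture at a fixed depth. Cells with at least 5000 UMIs were thinned to 5000, and shallower cells were left out of the shares. Depth differed, as the median UMIs per arterial-like cell were 12450 and 13168 in KO and 19942 and 11619 in WT libraries. Of the arterial-like cells, 296 of 301 and 457 of 466 were used in KO and 103 of 106 and 565 of 576 in WT libraries. In arterial-like cells Hey1 was then seen in 60.8% to 67.0% of cells over the 4 libraries, Notch1 in 54.9% to 61.9%, Dll4 in 36.5% to 48.5% and Hey2 in 24.3% to 26.7%. In the 148 erythroid-like cells, which should lack these genes and had medians of 31813 and 25119 UMIs in KO and 34029 and 28896 in WT libraries, few cells held a UMI of them. Dll4 was seen in 1 of 70 and 0 of 19 cells of the KO libraries and in 0 of 45 and 0 of 12 cells of the WT libraries, and Hey1 in 2 of 70 and 0 of 19 KO cells and 0 of 45 and 1 of 12 WT cells. Venous-like cells showed Dll4 in 2.88% to 3.64% and Hey1 in 3.36% to 4.45% of cells, against a highest erythroid-like share of 1.43% for Dll4 and 8.33% for Hey1. The 8.33% is that 1 cell of 12 in WT replicate 2, and without that library the highest Hey1 share was 2.86%, so the erythroid-like cells are too few to place the venous-like Hey1 share against background. Germ cell-like cells showed Hey1 in 19.5% to 31.1% of cells. Without thinning, arterial-like cells likewise held the highest mean share for 8 of the 10 members.

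Detection of the receptor did not follow detection of the ligand in the same direction in all libraries of arterial-like cells. Notch1 was detected in 63.9% and 54.6% of the Dll4-positive cells of the KO libraries and in 56.0% and 68.9% of those of the WT libraries, against 48.9% and 55.1% of the Dll4-negative cells of the KO libraries and 62.3% and 57.9% of those of the WT libraries. The difference was positive in KO replicate 1 and WT replicate 2 and negative in KO replicate 2 and WT replicate 1. Hey2 was detected in 24.8% to 26.1% of Hey1-positive and in 20.6% to 29.1% of Hey1-negative arterial-like cells. At 5000 UMIs per cell, low capture limits what such pairs can show.

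Over the 13 classes, Pearson's r of log2(CPM + 1) was 0.93 between Notch1 and Notch4, 0.90 between Notch1 and Nrarp, 0.87 between Notch4 and Dll4, 0.65 between Dll4 and Hey1 and -0.07 between Dll4 and Dll1. The classes share the same 4 libraries, so these values only describe them. Outside the pathway, and among 10681 genes, the patterns most like that of Dll4 were those of Nfkb2 (r = 0.95), Sft2d2 (0.95) and Cracr2b (0.95). For Hey2 they were Cdk19 (0.93), Sox6 (0.92) and Tmem100 (0.91), for Jag1 Agrn (0.95), Pcyox1 (0.90) and Nfat5 (0.89), and for Jag2 Sema3g (0.96), Il4ra (0.91) and Rassf2 (0.90). For Hey1 they were Ammecr1 (0.94), Sept4 (0.93) and Sema7a (0.93), for Hes1 B4galt2 (0.97), Gm10138 (0.97) and Arl16 (0.96), and for Nrarp Ly6h (0.95), Nedd9 (0.93) and Galnt18 (0.93). For Notch1 they were 4930402H24Rik (0.95), Tspan13 (0.94) and Psap (0.94), for Notch4 Spata6 (0.98), Rgs3 (0.97) and Slc31a2 (0.97), and for Dll1 Rufy3 (0.89), Arl4d (0.88) and Gdpd1 (0.85).

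Of the 50 further pathway genes, the 4 with the widest range between class means were Egfl7, Dlk1, Hes5 and Hes6. Egfl7, a secreted endothelial protein that binds Notch, averaged 1091 CPM in arterial-like and 52.2 CPM in erythroid-like cells. Dlk1, a ligand relative that lacks the Delta motif, was highest in mesenchymal-like cells, with 505 and 330.3 CPM in KO and 279.5 and 246 CPM in WT libraries. Hes5 and Hes6, the neural HES genes, were highest in neural-like cells, with means of 213 and 194 CPM.

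The study's main question is what loss of miR-223 changes, so KO was set against WT in each class with edgeR's quasi-likelihood test on summed counts and Benjamini-Hochberg adjustment over all genes tested, at a threshold of 0.05. Of the 99 tests of a member in a class, none passed; the lowest adjusted p of edgeR was 0.9996. The 11 combinations not tested fell below the filter on low counts, among them Hey2 in venous-like and sinusoidal-like cells and Dll4 in germ cell-like and neural-like cells. In the sum of all endothelial-like cells 0 of 10 members were called, where 0.109% of 14647 genes were. Called members were 0 also in arterial-like cells (0.0269% of all genes called), cluster 2 (0.0269%), sprouting-like (0.0291%), neural-plexus-like (0.0583%), venous-like (0.0595%), sinusoidal-like (0.0658%), hemogenic-like (0.0215%), germ cell-like (0.144%), mesenchymal-like (0.00823%) and neural-like cells (0%). In neural-like cells edgeR had 184 genes with an unadjusted p under 0.05, and DESeq2 called 3. So few genes passed in any class that 0 of 10 is near the background. DESeq2 called 0 members too, and with an unadjusted p under 0.05 edgeR had 2 members in endothelial-like cells, namely Hes1 and Nrarp, where 1.65% of all genes had one. By the same unadjusted limit there were 2 members in neural-plexus-like (1.55% of all genes) and in venous-like cells (1.69%), and 1 in arterial-like (2.25%), cluster 2 (1.34%), sinusoidal-like (1.69%), hemogenic-like (2.92%) and germ cell-like cells (3.3%). There were 0 in sprouting-like (1.51%), mesenchymal-like (2.39%) and neural-like cells (2.03%). Each of these was Hes1 or Nrarp, apart from Hey1 in neural-plexus-like cells.

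In arterial-like cells Hes1 had the largest estimate, a log2 change of -0.51 (95% interval -0.93 to -0.10), and the intervals of the other 9 members crossed 0. The log2 change, KO over WT, was -0.01 for Hey1 (95% interval -0.31 to 0.28), 0.08 for Hey2 (-0.26 to 0.42), -0.05 for Dll4 (-0.44 to 0.34), -0.12 for Notch1 (-0.42 to 0.18), -0.31 for Notch4 (-0.70 to 0.09), -0.21 for Jag1 (-0.53 to 0.10), -0.26 for Jag2 (-0.71 to 0.19), -0.24 for Dll1 (-1.04 to 0.56) and -0.18 for Nrarp (-0.51 to 0.15). Of the 10 estimates, 9 were below 0, with a median of -0.20 over the members and -0.002 over all 11140 genes. The KO libraries lay below the WT libraries for 5 members, Nrarp, Notch1, Jag1, Hes1 and Notch4, in a class where 27.3% of all genes did not overlap and 16% lay lower in KO. Without WT replicate 1 the median over the members was -0.08. The class joins clusters 11 and 12, which differed in Jag1, Hey2 and Hey1. In KO replicates 1 and 2, cluster 11 had 189 and 238 cells and cluster 12 had 112 and 228. In WT replicates 1 and 2, cluster 11 had 48 and 267 cells and cluster 12 had 58 and 309. KO was not tested against WT in either cluster alone.

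**Figure D4:**
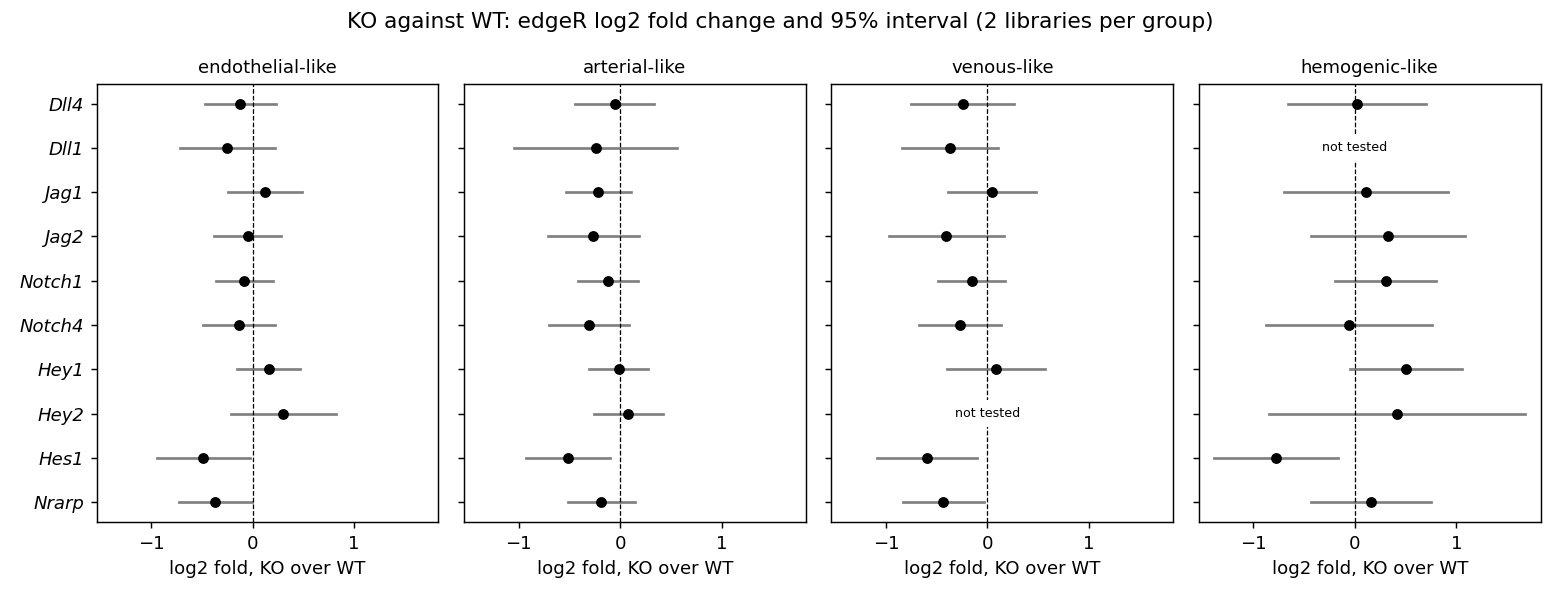
The log2 change of each Notch gene, KO over WT (horizontal axis; points are edgeR estimates and lines their 95% intervals), in endothelial-like, arterial-like, venous-like and hemogenic-like cells. Every Hes1 estimate is negative, between -0.78 and -0.48, and the intervals of most other genes cross 0.

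Hes1 had the largest median difference of the members, a log2 change of -0.48 over the 10 tested classes that share no cells. In endothelial-like cells it had 52.6 and 68.2 CPM in KO and 102 and 69.8 CPM in WT libraries. Both KO libraries lay below both WT libraries, but KO replicate 2 and WT replicate 2 were close, and WT replicate 1 was also the library with the highest Fos and Btg2. The log2 change was -0.48 ± 0.199 (SE; edgeR unadjusted p = 0.0406) and was -0.20 without WT replicate 1 and -0.30 without KO replicate 1. Whether the genes that respond quickly to stimulation had a part in it was not tested.

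In single classes the same order recurred. Arterial-like cells had Hes1 at 36.2 and 49.1 CPM in KO and 65.8 and 59.3 CPM in WT libraries, and hemogenic-like cells at 27.3 and 39.1 CPM in KO and 75.7 and 45.8 CPM in WT libraries. The groups did not overlap in either class, and the log2 changes were -0.51 ± 0.190 and -0.78 ± 0.284 (SE; edgeR unadjusted p = 0.0204 and 0.0157). The hemogenic-like value rests on 12 cells in WT replicate 1 and was -0.52 without that library. Venous-like cells had 51.1 and 63.0 CPM in KO and 116 and 63.3 CPM in WT libraries, a log2 change of -0.60 ± 0.227 that shrank to -0.14 without WT replicate 1. Over the 10 tested classes that share no cells, the estimate was negative in 9, the KO libraries lay below the WT libraries in 6, and the unadjusted p was under 0.05 in 5. The same 4 libraries supply every class, so these are not independent repeats. The exception was neural-like cells, with 56.1 and 74.8 CPM in KO and 36.9 and 72.7 CPM in WT libraries and a log2 change of 0.29. Nrarp likewise had 9 negative estimates and 6 classes with KO below WT, with an edgeR unadjusted p under 0.05 in 3. Notch4 also had 9 negative estimates. How many of all genes recurred in as many classes was not counted, so the recurrence has no background here.

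Nrarp had a smaller difference of the same sign. In endothelial-like cells it had 39.1 and 47.6 CPM in KO and 62.0 and 51.3 CPM in WT libraries, without overlap. The log2 change was -0.37 ± 0.157 (SE; edgeR unadjusted p = 0.0457), and -0.24 without WT replicate 1. Its estimate was -0.44 in venous-like, -0.43 in neural-plexus-like, -0.56 in sinusoidal-like and -0.18 in arterial-like cells, and was negative in 9 of the 10 classes that share no cells. In hemogenic-like cells it was 0.16, from 41.6 and 29.7 CPM in KO and 39.0 and 29.4 CPM in WT libraries, which overlapped.

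**Figure D5:**
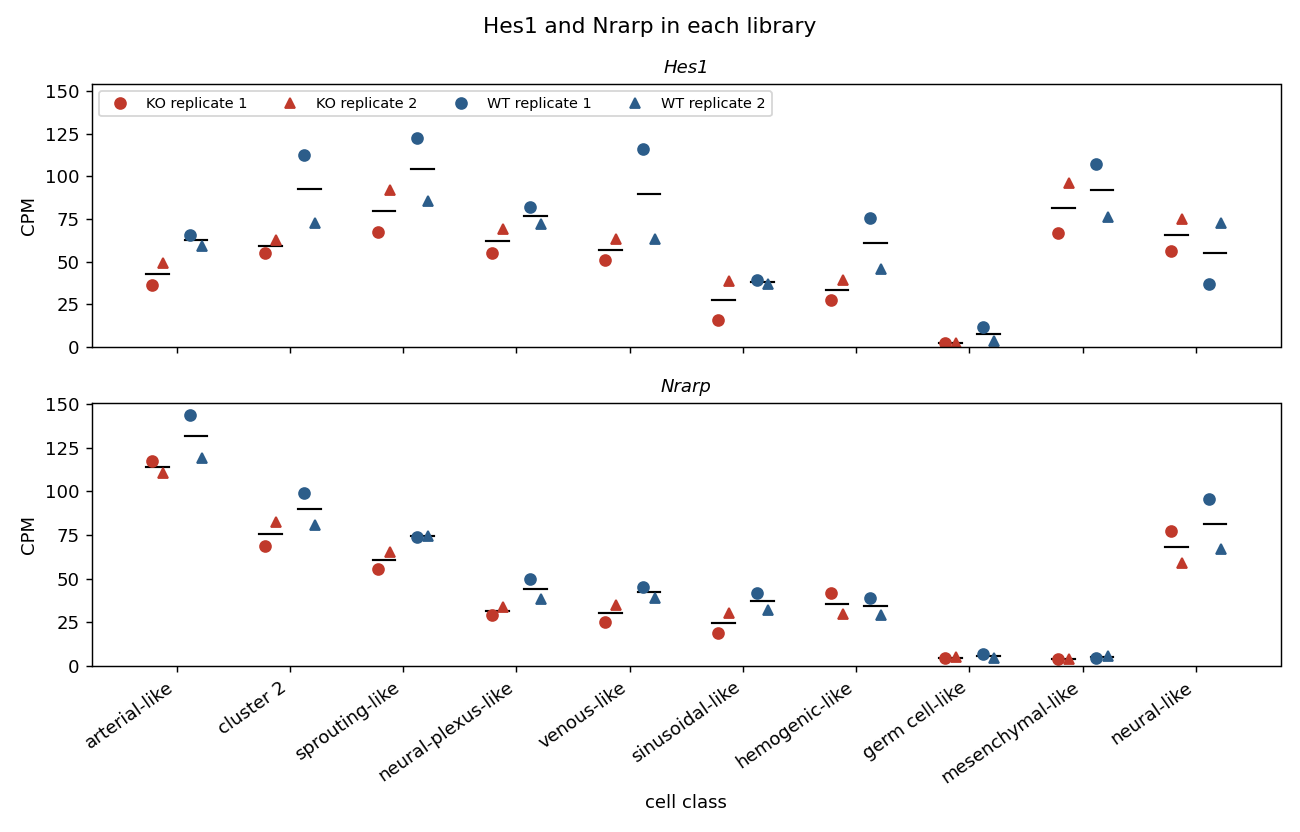
Level of Hes1 and Nrarp (vertical axis, CPM) in each tested class, with one point per library, KO libraries left of WT libraries, and bars at the mean of each group. WT replicate 1 is the highest Hes1 library in most endothelial classes, and the KO points lie below the WT points in 6 of 10 classes for each gene.

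Hey1 differed in sign between classes, and whether its differences departed from those of Hes1 was not tested. Hey1 had 41.6 and 42.8 CPM in KO and 31.4 and 34.5 CPM in WT neural-plexus-like cells, both KO libraries above both WT libraries, with a log2 change of 0.39 ± 0.162 (SE; edgeR unadjusted p = 0.0324). In hemogenic-like cells Hey1 had 47.4 and 48.5 CPM in KO and 43.6 and 29.4 CPM in WT libraries, also without overlap, with a log2 change of 0.50 ± 0.257 (SE; edgeR unadjusted p = 0.0701). Over the 10 classes that share no cells, 7 of the Hey1 estimates were above 0, and they ran from -0.54 to 0.50. Those of Hey2, in the 5 classes where it was tested, ran from -0.14 to 0.41, with 4 above 0. None of these passed adjustment over all genes.

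In hemogenic-like cells the remaining members had log2 changes of 0.30 for Notch1 (95% interval -0.20 to 0.80), 0.33 for Jag2 (-0.43 to 1.08), 0.41 for Hey2 (-0.85 to 1.68), 0.11 for Jag1 (-0.70 to 0.92), 0.02 for Dll4 (-0.66 to 0.70) and -0.06 for Notch4 (-0.88 to 0.76). Notch1 had 51.6 and 48.5 CPM in KO and 41.3 and 39.9 CPM in WT libraries, and these did not overlap. Of the 9 tested members, 4 did not overlap in this class, where 29.1% of all genes did not. The Notch1 interval spans 0, and WT replicate 1 gave 12 cells to this class.

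In venous-like cells 6 of 9 tested members had both KO libraries below both WT libraries, namely Nrarp, Notch1, Dll4, Jag2, Hes1 and Notch4, where 23.4% of all genes did not overlap and 16% lay lower in KO. Besides Hes1 and Nrarp, the log2 changes ran from -0.40 for Jag2 and -0.37 for Dll1 to 0.08 for Hey1. The median over the members was -0.27, and -0.002 over all 11756 genes; it was -0.14 without WT replicate 1, -0.42 without WT replicate 2 and -0.14 under a 5% limit on mitochondrial UMIs. In endothelial-like cells as a whole 5 of 10 members did not overlap (19.9% of all genes), with Hey1 and Hey2 higher and Hes1, Nrarp and Notch1 lower in KO, and the other log2 changes were -0.25 for Dll1, -0.13 for Notch4, -0.12 for Dll4, -0.05 for Jag2 and 0.12 for Jag1. In the other classes the members that did not overlap were 2 of 10 in cluster 2 (22.3% of all genes), 1 of 8 in sprouting-like (23.7%), 4 of 10 in neural-plexus-like (21.4%), 4 of 9 in sinusoidal-like (22.5%), 4 of 7 in germ cell-like (30.8%), 3 of 10 in mesenchymal-like (24.8%) and 2 of 7 in neural-like cells (26.5%).

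The genotype effect was also compared between arteries and veins in a single fit with a class by genotype term. By edgeR, 0 of 11879 genes (0%) differed, and none of the members did, also at an unadjusted p under 0.05, which 416 genes had. No other tool was run on it. Their differences, the arterial-like minus the venous-like log2 change, ran from -0.25 ± 0.163 for Jag1 to 0.27 ± 0.822 for Hey2 (SE). The Hey2 value rests on a mean of 0.244 CPM in venous-like cells. Nrarp came next to it, at 0.26 ± 0.145 (SE).

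None of the 44 further pathway genes tested in endothelial-like cells passed by edgeR, nor did any of the list in another class. With an unadjusted p under 0.05 there was 1 of the list each in endothelial-like, neural-plexus-like, hemogenic-like, mesenchymal-like and neural-like cells and in cluster 2, and 0 in the other classes. DESeq2 called none of them in any class. Dlk1 in mesenchymal-like cells had the levels given above, with both KO libraries above both WT libraries and a log2 change of 0.69 ± 0.187 (SE; edgeR unadjusted p = 0.00363). It passed adjustment under some of the alternative settings but not in the fit reported here.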

How the data were processed

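Per the file headers, the deposited matrices were written by Cell Ranger 3.1.0 and hold unscaled UMI counts, 1 value for each gene in each barcode. The submitters' processing notes also list Seurat 4. File names mark the barcodes as filtered by the authors. Aligner settings, strand, genome build and annotation: not given in the sources used here. The 10 genes, the gene lists and the tests were chosen with earlier results of these data known.

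A cell was kept if it had at least 1000 genes and less than 10% of its UMIs from mitochondrial genes. Doublets were called with 2 simulated doublets for each cell, at a rate of 0.8% per 1000 barcodes, which took 5.28% and 8.96% of the cells in KO replicates 1 and 2 and 3.61% and 10.1% in WT replicates 1 and 2. Counts were normalised to 10000 UMIs per cell and log-transformed, and 2000 variable genes, without the Notch genes, were scaled within each library. Leiden clustering used 40 principal components, 20 neighbours and resolution 1 (Python 3.11.15, scipy 1.17.1, igraph 0.11.9, leidenalg 0.10.2). A class name needed at least 3 detected markers, and the names were set after seeing the clusters.

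UMI counts were summed per class and library and tested with edgeR 4.0.16 in R 4.3.3 (robust quasi-likelihood fit, filterByExpr, TMM) where each library held at least 20 cells, or 10 for hemogenic-like cells. The test was tested on simulated counts first. DESeq2 1.42.0, another scaling, no filter, the replicate number as a block, leaving out each library, doublets kept, a stricter mitochondrial limit of 5% and a clustering that allowed Notch genes were the alternatives. Intervals on fold changes are at 95%, and shares of cells cover counting error only. All 10 members are named in the text, together with the 4 pathway genes of widest range and the 3 genes most like each member. Sequences and 3' UTRs were read from RefSeq and GENCODE copies of GRCm38, which may not be the authors' build.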

Additional observations from a re-analysis of the deposited data

How the results depend on the processing

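No member passed edgeR's adjusted threshold in any class under any of the 12 settings, 1168 tests in all, and the lowest adjusted p of edgeR was 0.0721, for Hes1 in venous-like cells without WT replicate 2. Of the log2 changes given in the text, 338 of the estimates under alternatives other than leaving out a library kept their sign and 9 did not. Jag1 turned to -0.028 and Hey2 to -0.13 in endothelial-like cells under a 5% mitochondrial limit. In venous-like cells Jag1 turned to -0.061 with doublets kept, -0.092 with Notch genes allowed in the clustering and -0.017 under the 5% limit, and Hey1 to -0.11 with Notch genes allowed. In hemogenic-like cells Notch4 turned to 0.011 with Notch genes allowed, Dll4 to -0.016 with DESeq2 and Jag1 to -0.056 with doublets kept.

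Leaving out 1 library at a time turned 25 of 212 estimates. In endothelial-like cells Notch4 then ran from -0.27 to 0.017, Dll4 from -0.26 to 0.028, Jag1 from -0.022 to 0.29 and Jag2 from -0.12 to 0.028; in arterial-like cells Dll4 ran from -0.28 to 0.18 and Hey1 from -0.030 to 0.0062; in venous-like cells Jag1 ran from -0.041 to 0.11 and Hey1 from -0.099 to 0.21. In hemogenic-like cells Notch4 ran from -0.31 to 0.53, Dll4 from -0.24 to 0.15, Jag1 from -0.25 to 0.95, Hey2 from -0.46 to 1.23 and Nrarp from -0.12 to 0.34. Hes1 ran from -1.27 to 0.048 in sinusoidal-like, from -0.44 to 0.091 in mesenchymal-like and from -0.15 to 0.85 in neural-like cells, and Nrarp from -0.42 to 0.049 in germ cell-like and from -0.46 to 0.064 in neural-like cells. The Hes1 and Nrarp estimates kept their sign in the other classes tested.

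The number of genes called over all genes moved far more than the members did. Without the filter on low counts it was 86 in endothelial-like, 25 in arterial-like, 16 in cluster 2, 19 in sprouting-like, 30 in neural-plexus-like, 26 in venous-like, 25 in sinusoidal-like, 17 in hemogenic-like, 35 in germ cell-like, 40 in mesenchymal-like and 23 in neural-like cells. With DESeq2 it was 42 in endothelial-like, 7 in arterial-like, 7 in cluster 2, 11 in neural-plexus-like, 7 in mesenchymal-like and 3 in neural-like cells. In the remaining classes DESeq2 moved it little. It called 3 in sprouting-like, 9 in venous-like, 9 in sinusoidal-like, 2 in hemogenic-like and 11 in germ cell-like cells. The fit reported here had 3, 7, 7, 2 and 15 in these. With the replicate number as a block it was 72, 9, 10, 44, 16, 11, 27, 31, 56 and 89 in endothelial-like, arterial-like, cluster 2, sprouting-like, neural-plexus-like, venous-like, sinusoidal-like, hemogenic-like, germ cell-like and mesenchymal-like cells. Libraries with the same number deviated together by a correlation of 0.20 to 0.47, but with 2 pairs the labels do not show a shared batch; the block called 0 members and only Dlk1 (log2 change 0.67 in mesenchymal-like cells) of the pathway list. For the next settings only the classes whose counts moved most, as a share, are given. With doublets kept the number was 10 in endothelial-like, 1 in hemogenic-like and 0 in mesenchymal-like cells. Under the 5% limit it was 7, 2, 2, 0 and 4 in endothelial-like, neural-plexus-like, venous-like, mesenchymal-like and neural-like cells. With Notch genes allowed it was 4 in neural-plexus-like and 1 in hemogenic-like cells. Leaving out each library gave 23 to 98 genes in endothelial-like, 8 to 58 in arterial-like, 3 to 26 in cluster 2, 2 to 22 in sprouting-like, 16 to 65 in neural-plexus-like, 6 to 43 in venous-like, 11 to 21 in sinusoidal-like, 14 to 45 in hemogenic-like, 11 to 28 in germ cell-like, 33 to 58 in mesenchymal-like and 0 to 100 in neural-like cells. With a library left out, the lone library of its group is assumed to vary like the other group.

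Of the further pathway list, Dlk1 was the 1 gene called without the filter (log2 change 0.70 in mesenchymal-like cells) and under the block, and 1 to 2 calls were made when a library was left out, all of Dlk1 and in both directions. Its log2 change was then 0.96 without KO replicate 2 and 0.76 without WT replicate 1 in mesenchymal-like cells and 2.29 without KO replicate 1 in neural-like cells, but -3.25 without KO replicate 1 in cluster 2 and -1.55 without WT replicate 2 in hemogenic-like cells. The cause of these shifts was not tested. With Notch genes allowed in the clustering, 92.4% of 19167 cells kept their class. Not run, for lack of cells, were the 5% limit in arterial-like, hemogenic-like and germ cell-like cells, and the clustering with Notch genes in sprouting-like cells. In that clustering no cluster was mostly sprouting-like, so this class held 0 cells in every library and depends on the genes used to cluster. Depth limits the low members: Hey2, Dll1, Dll4 and Jag2 fell below the filter in some classes.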
